A study of Homo sapiens with 4 samples.

Results

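Sestrins, FOXO factors and genes that restrain the growth kinase complex mTORC1 or act with FOXO were followed by RNA sequencing of label-retaining MDA-MB-231 cells. The group holds 10 genes, taken by symbol from the 58735 genes of the count table: SESN1, SESN2, SESN3, DDIT4, DEPTOR, FOXO1, FOXO3, FOXO4, TXNIP and IRS2. MDA-MB-231 is an established line from a human triple-negative breast cancer, and all 4 libraries came from cells transduced with TetOn-H2BeGFP, a histone-GFP reporter that doxycycline switches on. The labels describe doxycycline at 5 μg/ml given over 3 days, staining with Claret and Violet dyes, and a chase of 12 days during which dividing cells dilute each label. The brightest 1% for Claret, for eGFP or for Violet were sorted as 3 slow-cycling populations, named Claret, eGFP and Violet here, while Bulk cells passed the sorter ungated. Doxycycline, dyes and chase are described for the whole culture, so Bulk shares them. Each population gave 1 library, so no difference below has a replicate check.

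Libraries are named by their titles, which are also the names of the table columns, but the treatment field of the labels gives every library a different sort. The library titled Bulk is Claret in that field, and the library titled Violet is un-gated. Total reads were 15508179 to 16976909 per library. The proliferation gene MKI67 counted 6778 reads in the library titled Bulk and 689 to 995 in the others, and mitochondrial genes took 4.18% of reads in Bulk and 5.06% to 5.48% in the others. Whether these differences have a part in the results below was not tested. The mesenchymal markers VIM and CD44 were read in every library (5303 to 18488 reads). The hormone receptor genes ESR1 and PGR had 0 to 7 reads, and the leukocyte gene PTPRC had 0 to 2. Of the other markers, EGFR had 12910 to 17277 reads, KRT18 2690 to 3287 and CDH1 0 to 3. Genes chosen with PTPRC as markers of other cells were not all near 0. COL1A1 had 284 to 363 reads, PECAM1 54 to 87 and EPCAM 28 to 61.

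mTORC1 drives protein synthesis and growth when amino acids, energy and growth factors are present. Sestrins bind the GATOR2 complex and thereby release its partner GATOR1, which shuts off amino-acid signalling to mTORC1; SESN2 itself binds leucine. DDIT4, also called REDD1, acts through the TSC complex, and DEPTOR binds the mTOR kinase itself. FOXO proteins are transcription factors that AKT keeps out of the nucleus while insulin or growth factors signal. TXNIP is an arrestin-like protein that binds thioredoxin and lowers glucose uptake, and IRS2 couples the insulin receptor to PI3K. These last genes are read as companions of FOXO signalling, not as mTORC1 inhibitors.

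The promoters of TXNIP, DDIT4 and SESN2 are shown because these genes differed most from Bulk. They are from RefSeq (GRCh38.p14), run 5′ to 3′ on the gene's strand and stop 31 bases before the annotated start. The windows are chr1:145996610-145996829 on the minus strand for TXNIP, chr10:72273674-72273893 on the plus strand for DDIT4 and chr1:28259268-28259487 on the plus strand for SESN2. Capitals mark the FOXO motif GTAAACA, the CCAAT box in either orientation, and 1 carbohydrate-response-type pair of half-sites.
TXNIP: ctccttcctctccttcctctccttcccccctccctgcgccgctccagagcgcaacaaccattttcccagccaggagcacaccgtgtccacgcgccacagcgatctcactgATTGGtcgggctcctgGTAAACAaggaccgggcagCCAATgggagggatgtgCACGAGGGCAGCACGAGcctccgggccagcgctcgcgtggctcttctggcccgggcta
DDIT4: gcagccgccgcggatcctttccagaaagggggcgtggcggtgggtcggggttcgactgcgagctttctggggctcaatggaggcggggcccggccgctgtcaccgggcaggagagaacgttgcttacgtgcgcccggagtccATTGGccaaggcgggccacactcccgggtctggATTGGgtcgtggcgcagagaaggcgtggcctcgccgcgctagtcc
SESN2: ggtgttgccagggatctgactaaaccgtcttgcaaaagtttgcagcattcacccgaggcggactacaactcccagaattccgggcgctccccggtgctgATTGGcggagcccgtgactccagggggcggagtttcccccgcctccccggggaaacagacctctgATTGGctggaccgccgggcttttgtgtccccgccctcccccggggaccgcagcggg

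RefSeq promoter windows, from 250 bases before to 50 after a start, were matched for 9 of the 10 genes (15 windows; none for DEPTOR). GTAAACA, searched on both strands, begins 124 bases upstream in TXNIP and 24 bases after a RefSeq start of FOXO4. That FOXO4 window (71095601 to 71095900) ends before the counted gene begins (71096197). Of all 35116 windows, 3.42% hold the motif. The carbohydrate-response-type pair, CACGNG and CNCGNG with 5 bases between them on either strand, begins 88 bases upstream in TXNIP, in 1 of the 15 windows, against 0.501% of all windows. That pattern and the CCAAT box were added after the sequences had been seen. CCAAT, on either strand, occurs in 7 of the 15 windows (6 of the 9 genes) and in 34.6% of all windows. TXNIP, DDIT4, SESN2 and IRS2 have 2 matches each within 1 window, and SESN1 has 1 match in each of 2 windows. Those SESN1 windows lie inside the counted gene, away from its annotated 5′ end at 109094819. IRS2 and SESN1 were not called. The joint ATF4 and C/EBP motif TGATGCAA (0.866% of all windows) and the E-box CACGTG (7.26%) were found in 0 of the 15. The AP-1 motif TGACTCA (4.95%) was found in 1 window, at an alternative start of FOXO3. No matches in TXNIP overlap one another. Matches are descriptions of letters in these windows, not of factor binding.

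Of the 10 genes, 5 were called higher than Bulk for Claret, 4 for eGFP and 5 for Violet, and 0 were called lower in any of them. Over all 14585 genes with a mean of at least 1 CPM (reads scaled to library size), the Claret library had 11.2% called higher and 6.72% lower. The eGFP library had 11.9% higher and 7.64% lower, and the Violet library 11.6% higher and 6.91% lower. The 10 genes were chosen with earlier results of these data known, so setting their counts beside these shares is no test of the group. TXNIP, DDIT4, SESN2 and FOXO4 were called higher in all 3 slow-cycling libraries, a place that 8.49% of genes held, with 4.93% lower in all 3; DEPTOR was called higher in Claret and Violet alone. A gene was called when its log2 ratio of scaled CPM reached 1 in size, a difference of 2-fold, and an exact binomial test on the reads of both libraries gave an adjusted p under 0.05. The test sets library beside library and says nothing of the conditions. With groups taken from the treatment field in place of the titles, 0 of the 10 were higher and 5 lower in Claret, and 0 were called in eGFP or Violet. SESN1 and SESN3 lay below Bulk in all 3, and FOXO1, FOXO3 and IRS2 lay above it by less than 2-fold. The 10 genes had a median log2 ratio of 0.78 (Claret), 0.69 (eGFP) and 0.94 (Violet), beside -0.01, -0.01 and 0.01 over all genes kept. All 10 passed the filter on low counts; intervals below are 95% exact (Clopper-Pearson) intervals of the read ratio and cover counting error only. In sorted populations, more cells with a transcript and more transcript per cell cannot be told apart.

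**Figure D1:**
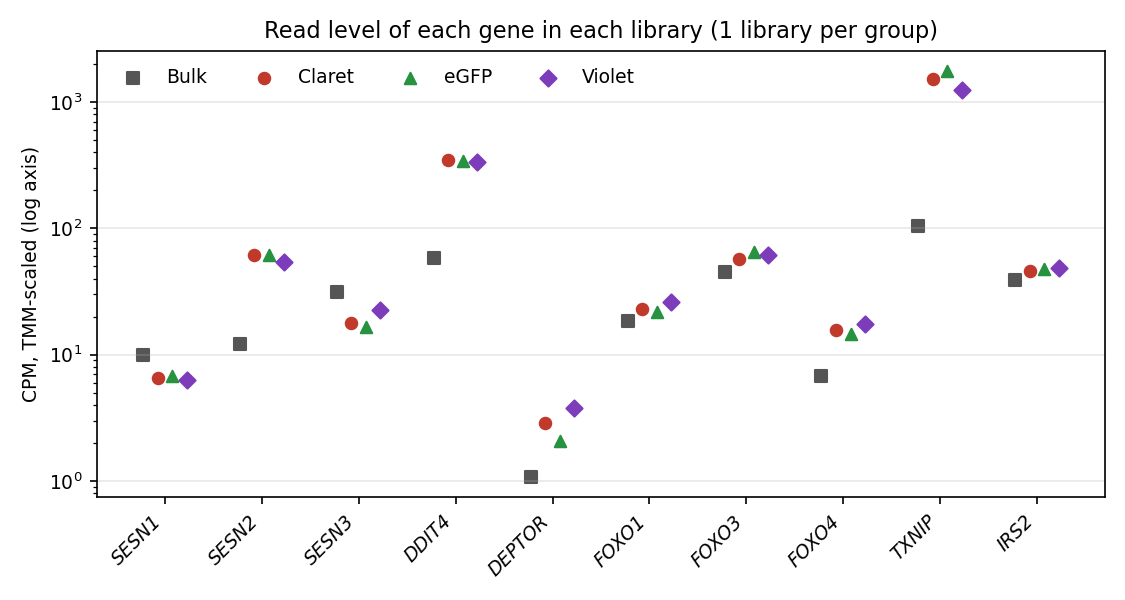
CPM (reads scaled to library size by TMM, log axis) of the 10 genes in each library, 1 point per library. TXNIP runs from 105 CPM in Bulk to between 1241 and 1757 CPM in the slow-cycling libraries, while SESN1 and SESN3 are highest in Bulk; CPM values do not account for gene length.

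**Figure D2:**
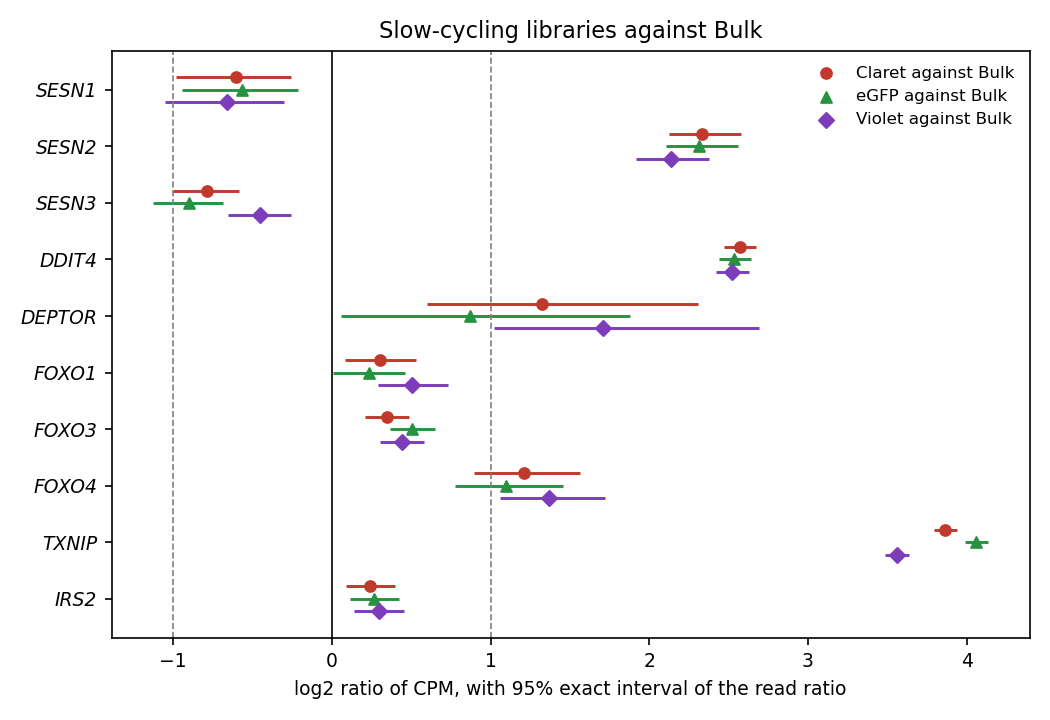
Log2 ratio of each slow-cycling library to Bulk with the 95% exact interval of the read ratio; dashed lines mark a log2 ratio of 1 in either direction. The intervals of TXNIP, DDIT4 and SESN2 lie wholly above 1 in all 3 libraries, and those of SESN1 and SESN3 lie below 0.

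The 3 sestrin genes differed from Bulk in opposite directions, with SESN2 above it and SESN1 and SESN3 below. SESN2 (ENSG00000130766, chromosome 1, 28259527 to 28282491, GRCh38) encodes the leucine-binding sestrin and was read 192 times in Bulk, 1052 times in Claret, 972 times in eGFP and 849 times in Violet. All 3 slow-cycling libraries were thus well above Bulk. Its level was 5.04-fold higher in Claret (log2 ratio 2.33, interval 2.12 to 2.58), 4.98-fold in eGFP (2.32, 2.10 to 2.56) and 4.39-fold in Violet (2.13, 1.92 to 2.38). Only 227 of the 14585 genes had a larger log2 ratio than SESN2 in Claret, 268 in eGFP and 306 in Violet. No 31-base stretch of its transcripts occurs in those of another gene, its relatives included.

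SESN1 (ENSG00000080546, chromosome 6, 108986437 to 109094819), a broadly expressed sestrin gene, was read 158 times in Bulk, 111 times in Claret, 107 times in eGFP and 99 times in Violet. Bulk was the highest of the 4 libraries and the slow-cycling libraries lay close together. The log2 ratios were -0.61 (-0.98 to -0.26), -0.57 (-0.94 to -0.21) and -0.66 (-1.05 to -0.30) in Claret, eGFP and Violet, none of them called. SESN3 (ENSG00000149212, chromosome 11, 95165513 to 95232541), known as a FOXO target, was read 490 times in Bulk, 305 times in Claret, 264 times in eGFP and 357 times in Violet. Violet lay between Bulk and the other slow-cycling libraries. Its log2 ratios were -0.79 (-1.003 to -0.58), -0.90 (-1.13 to -0.69) and -0.45 (-0.66 to -0.26), short of the 2-fold threshold.

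Levels of different genes were compared per length, on the deposited FPKM. In Bulk the sestrins stood at 3.58 FPKM for SESN2 (exact Poisson interval 3.09 to 4.12), 2.98 for SESN3 (2.72 to 3.26) and 1.99 for SESN1 (1.69 to 2.32), so that SESN2 and SESN3 overlapped within counting error. In Claret SESN2 stood at 17.95 FPKM beside 1.70 for SESN3 and 1.28 for SESN1, and in eGFP at 17.6 FPKM beside 1.56 and 1.31. In Violet it stood at 15.3 FPKM beside 2.10 and 1.20. SESN2 thus made up 41.9% of the summed sestrin FPKM in Bulk, but 85.8% in Claret, 86.0% in eGFP and 82.2% in Violet. Summed over the family, FPKM was 8.54 in Bulk and 20.9, 20.5 and 18.6 in the same order.

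**Figure D3:**
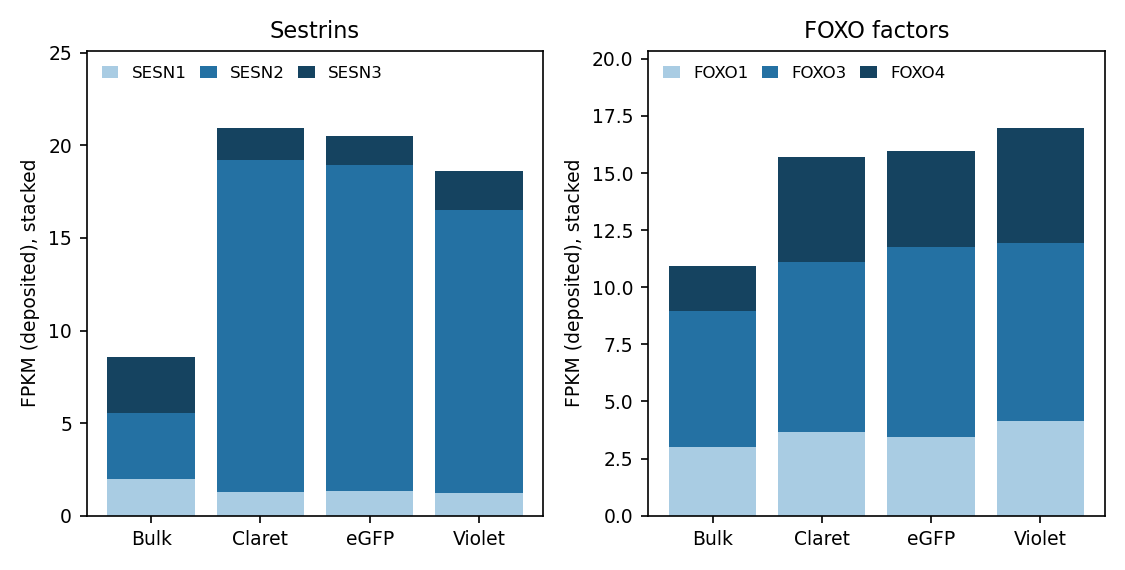
Deposited FPKM of the sestrins and of the FOXO factors FOXO1, FOXO3 and FOXO4, stacked within each library, with no error bars. The sestrin bar grows from 8.54 FPKM in Bulk to between 18.6 and 20.9 FPKM through SESN2, while each FOXO gene adds to the growth of the FOXO bar from 10.9 to between 15.7 and 17.0 FPKM.

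DDIT4 (ENSG00000168209, chromosome 10, 72273920 to 72276036), the TSC-dependent inhibitor, was read 923 times in Bulk, 5916 times in Claret, 5413 times in eGFP and 5304 times in Violet. The slow-cycling libraries differed little among themselves and all stood far above Bulk. The folds were 5.94 in Claret (log2 ratio 2.57, interval 2.47 to 2.67), 5.80 in eGFP (2.54, 2.44 to 2.64) and 5.74 in Violet (2.52, 2.42 to 2.63). Its FPKM was 28.9 in Bulk and 160.5 to 169.4 in the others. It ranked 1708th by FPKM among the genes kept in Bulk, and 171st, 176th and 167th in Claret, eGFP and Violet. The antisense gene DDIT4-AS1 overlaps 41.2% of the exon bases of DDIT4. DDIT4-AS1 is listed with 0 reads in all 4 libraries, but how strand was used in counting is not stated, so reads of this pair cannot be told apart.

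DEPTOR (ENSG00000155792, chromosome 8, 119873717 to 120050913), the mTOR-binding inhibitor, was the most weakly read of the 10 genes, with reads of 17 in Bulk, then 49 in Claret, 33 in eGFP and 60 in Violet. Bulk was again the lowest library, and eGFP the lowest of the slow-cycling ones. The log2 ratios were 1.32 (0.60 to 2.31) in Claret, 0.87 (0.06 to 1.88) in eGFP and 1.71 (1.02 to 2.69) in Violet. The intervals in Claret and eGFP reach below 1, so the size of the difference is poorly fixed at this depth. On log2(FPKM + 1), a scale that shrinks changes of low genes, DEPTOR fell short of the threshold in every library (0.57 in Claret and 0.78 in Violet).

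The FOXO factors of the group all lay above Bulk, with FOXO4 called. FOXO4 (ENSG00000184481, chromosome X, 71096197 to 71103535) was read 106 times in Bulk, 267 times in Claret, 231 times in eGFP and 277 times in Violet. Each slow-cycling library had more than 2-fold the Bulk CPM. The log2 ratios were 1.21 (0.89 to 1.56), 1.10 (0.77 to 1.46) and 1.37 (1.06 to 1.72) in Claret, eGFP and Violet, and the Claret and eGFP intervals include values below 1. On the scale log2(FPKM + 1) the ratio was 0.90 in Claret and 0.80 in eGFP, under the threshold.

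FOXO3 (ENSG00000118689, chromosome 6, 108559835 to 108684774) was read 714 times in Bulk, 978 times in Claret, 1024 times in eGFP and 969 times in Violet. The log2 ratios were 0.35 (0.21 to 0.49), 0.51 (0.37 to 0.65) and 0.44 (0.30 to 0.58), above Bulk beyond counting error but not called. Of the 31-base stretches in its transcripts, 34.9% also occur in other genes, 18.2% in its near-copy FOXO3B, so its count is uncertain. FOXO3B itself had 11 to 24 reads, and with both genes summed the log2 ratios were 0.32, 0.47 and 0.42. FOXO1 (ENSG00000150907, chromosome 13, 40469953 to 40666597) was read 291 times in Bulk, 387 times in Claret, 345 times in eGFP and 414 times in Violet. Its log2 ratios were 0.30 (0.08 to 0.53), 0.23 (0.00 to 0.46) and 0.51 (0.29 to 0.73), none called, and in eGFP the exact binomial test gave an adjusted p of 0.0608.

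Per length, FOXO3 was the highest of the group's FOXO genes in every library, with 5.95 FPKM in Bulk. It stood at 7.46 FPKM in Claret, 8.30 in eGFP and 7.82 in Violet. In Bulk FOXO1 (3.00 FPKM, 2.67 to 3.37) lay above FOXO4 (1.98 FPKM, 1.62 to 2.39). In Claret FOXO4 stood at 4.56 FPKM (4.03 to 5.15) and FOXO1 at 3.66 (3.30 to 4.04), intervals that overlap slightly. FOXO4 made up 18.1% of the summed FPKM of FOXO1, FOXO3 and FOXO4 in Bulk, but 29.1% in Claret, 26.3% in eGFP and 29.5% in Violet.

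TXNIP (ENSG00000265972, chromosome 1, 145992435 to 145996600) had the largest difference of the 10 genes. It was read 1657 times in Bulk, 26000 times in Claret, 27931 times in eGFP and 19542 times in Violet. Violet was the lowest and eGFP the highest of the slow-cycling libraries, and Bulk was far below all of them. The level was 14.5-fold higher in Claret (log2 ratio 3.86, interval 3.79 to 3.94), 16.7-fold in eGFP (4.06, 3.99 to 4.13) and 11.8-fold in Violet (3.56, 3.49 to 3.63). In Claret 26 genes had a larger log2 ratio, in eGFP 22 and in Violet 33.

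TXNIP took 0.0103% of all reads in Bulk (exact binomial interval 0.00984% to 0.0108%) and 0.153% (0.151% to 0.155%), 0.176% (0.174% to 0.178%) and 0.126% (0.124% to 0.128%) in Claret, eGFP and Violet. Its FPKM of 29.4 in Bulk (28.0 to 30.9) overlapped that of DDIT4 (28.9, 27.0 to 30.8). In the slow-cycling libraries TXNIP stood at 335.8 to 482.2 FPKM, above DDIT4 in each. It moved from rank 1667 by FPKM in Bulk to ranks 59, 54 and 69 in Claret, eGFP and Violet. No 31-base stretch of its transcripts is shared with another gene.

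IRS2 (ENSG00000185950, chromosome 13, 109752698 to 109786568), the insulin-receptor substrate, was read 618 times in Bulk, 787 times in Claret, 751 times in eGFP and 758 times in Violet. The slow-cycling libraries lay slightly above Bulk and close to each other. The log2 ratios were 0.24 (0.09 to 0.40), 0.27 (0.11 to 0.42) and 0.29 (0.14 to 0.45), none called. Its relative IRS1 counted 2439 reads in Bulk against 1628 to 1807 elsewhere, with log2 ratios of -0.54, -0.60 and -0.47.

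Between slow-cycling libraries, 0 of the 10 genes were called in any of the 3 comparisons, where the share of all genes called was 0.761% between Claret and eGFP, 0.802% between Claret and Violet and 1.01% between eGFP and Violet. By the exact binomial test alone, with no threshold on size, some small differences passed an adjusted p of 0.05. TXNIP was 0.20 lower on the log2 scale in Claret than in eGFP (log2 ratio -0.20, interval -0.22 to -0.17). It was 0.30 higher in Claret than in Violet (0.28 to 0.33) and 0.50 higher in eGFP than in Violet (0.48 to 0.53), which is 1.42-fold. SESN2 was also above Violet, by 0.20 in Claret (0.07 to 0.33; exact binomial test, adjusted p = 0.0205) and 0.18 in eGFP (0.05 to 0.32; adjusted p = 0.0454).

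SESN3 differed the other way, at -0.33 for Claret against Violet (-0.56 to -0.11; exact binomial test, adjusted p = 0.0231) and -0.45 for eGFP against Violet (-0.68 to -0.22; adjusted p = 0.00186). DEPTOR was at -0.84 for eGFP against Violet (-1.54 to -0.24; exact binomial test, adjusted p = 0.0332), on 33 and 60 reads. DDIT4 differed by 0.02 to 0.05 among the 3 libraries, with intervals that all include 0 and reach no further than 0.10. For SESN1, FOXO1, FOXO3, FOXO4 and IRS2 no adjusted p was under 0.05 in these comparisons (the smallest was 0.0514, for FOXO1 between eGFP and Violet). The unadjusted 95% intervals of FOXO1 for Claret against Violet and eGFP against Violet, of FOXO3 for Claret against eGFP and of FOXO4 for eGFP against Violet nevertheless exclude 0.

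**Figure D4:**
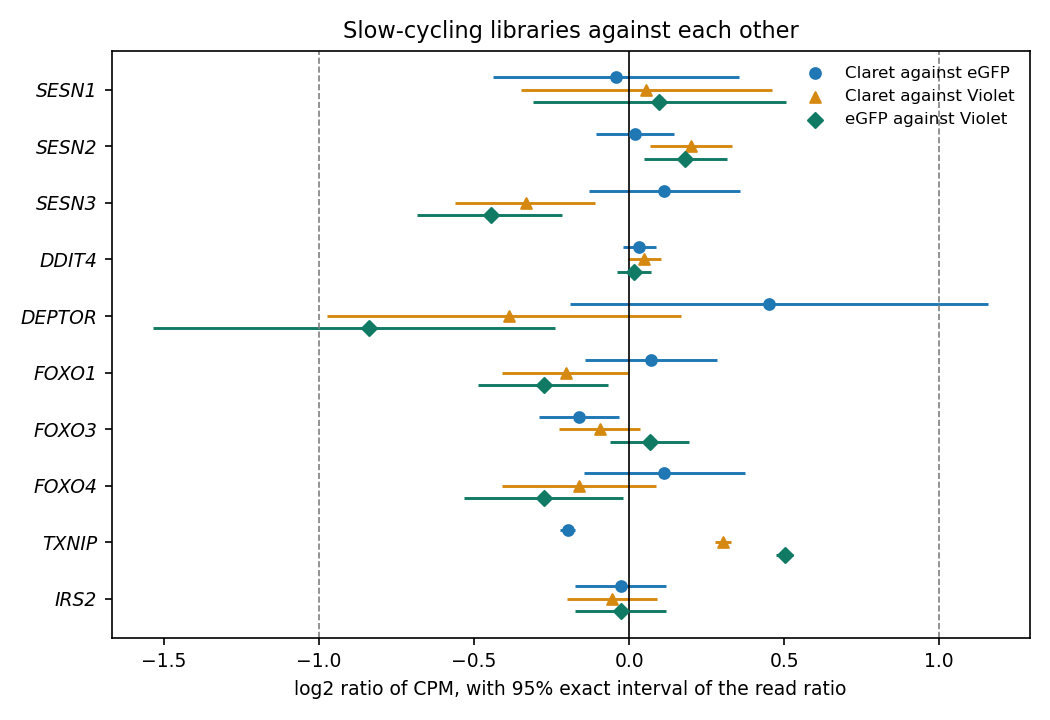
Log2 ratio between pairs of slow-cycling libraries with the 95% exact interval of the read ratio; dashed lines mark a log2 ratio of 1 in either direction. No point reaches a dashed line; TXNIP, with the narrowest intervals, lies at -0.20, 0.30 and 0.50, and DEPTOR has the widest.

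The machinery these genes act on was read from lists of pathway genes, which were also chosen with earlier results of these data known. Of 22 other mTORC1 inhibitors, 21 passed the filter, and 13 were called in none of the slow-cycling libraries. In all 3 of them 2 were called higher and 1 lower, shares near the 8.49% higher and 4.93% lower over all genes. By library, 2 were higher and 2 lower in Claret, 3 higher and 4 lower in eGFP, and 2 higher and 1 lower in Violet. Over all genes 11.2% to 11.9% were higher and 6.72% to 7.64% lower. The median log2 ratio over those that passed was -0.00, -0.00 and -0.02 for Claret, eGFP and Violet, beside medians over all genes kept of -0.01, -0.01 and 0.01; the signs of such values near 0 changed with the scaling. CASTOR1, an arginine sensor, counted 9 reads in Bulk against 36 (Claret), 50 (eGFP) and 33 (Violet), with log2 ratios of 1.69, 2.23 and 1.67. It passed the filter only through the slow-cycling libraries, where it is high, so its call carries no support for the list, and its count is uncertain, since 42.6% of its 31-base stretches occur in other genes. KICS2 rose by 1.18, 1.47 and 1.38 and KPTN fell, at -1.30, -1.22 and -1.32, although both encode parts of KICSTOR, the complex that holds GATOR1 on the lysosome. TSC2, the partner through which DDIT4 acts, was at 0.15, 0.24 and 0.16. AKT1S1, which encodes the mTORC1 inhibitor PRAS40, was at -1.03, -0.98 and -0.94 and was called lower in Claret.

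Of 22 genes for mTORC1 subunits and activators, all of which passed the filter, 0 were called higher in any library, and 2 were lower in Claret, 1 in eGFP and 0 in Violet, where 11.2% to 11.9% of all genes were higher and 6.72% to 7.64% lower. Their median log2 ratios were -0.22, -0.27 and -0.18. MTOR itself counted 1452 reads in Bulk against 732 (Claret), 820 (eGFP) and 752 (Violet), with log2 ratios of -1.09, -0.84 and -0.95, of which the Claret value was called. Among 11 substrates and readers of mTORC1, 10 passed the filter, and the medians were 0.37, 0.37 and 0.36. Of these genes 0 were called in all 3 libraries, beside 8.49% higher and 4.93% lower over all genes. ULK1, the autophagy-starting kinase gene, was called higher in eGFP (1.09) and Violet (1.05) and was at 0.98 in Claret, and the S6 kinase gene RPS6KB2 was called lower in Violet (-1.05). Of 21 insulin and PI3K pathway genes, 20 passed the filter, 0 were called higher and 2 were called lower in Claret, 2 in eGFP and 1 in Violet, set against the same shares of all genes. PIK3R3, a regulatory subunit of PI3K, fell by 2.57, 1.87 and 1.60 on the log2 scale, from 147 reads in Bulk to 25, 39 and 47. The kinase gene SGK3 was called lower in Claret (-1.26) and eGFP (-1.07) and was at -0.80 in Violet. Medians of that list were -0.29, -0.34 and -0.29.

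FOXO target genes outside the group were read next. Of 27 listed, 25 passed the filter, and the number called higher was 10 for Claret, 8 for eGFP and 11 for Violet, beside 11.2%, 11.9% and 11.6% of all genes, with 0 called lower. Their medians were 0.62, 0.66 and 0.62. In all 3 libraries 8 were called higher, beside 8.49% of all genes. These 8 included BBC3, a pro-apoptotic BH3 gene, at 2.18, 2.71 and 2.22. FBXO32, a ubiquitin-ligase gene of muscle wasting, was at 1.93, 2.03 and 1.91. KLF15, a transcription factor of fasting metabolism, was at 2.09, 2.21 and 1.90 from 9 reads in Bulk. RBL2, GADD45A, ERBB3, GABARAPL1 and MAP1LC3B were the others, named after their values were seen. CDKN1B and BCL2L11, textbook FOXO targets for cell-cycle arrest and cell death, were not called, with CDKN1B at 0.11 to 0.14 and BCL2L11 at -0.46 to -0.40. KLF15 and SELENOP, with under 10 reads in Bulk, passed the filter only through the slow-cycling libraries, where they are high. The counts above include their calls (KLF15 in all 3 libraries, SELENOP in Claret and Violet), which carry no support for the list.

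Genes around TXNIP were listed together: MondoA-related, arrestin-like, thioredoxin-system and glucose-use genes, so the medians below describe that mix. Among them ARRDC4 and MLXIPL were higher and the others were not called. ARRDC4, an arrestin-like relative that the glucose-sensing factor MondoA also induces, counted 60 reads in Bulk against 418 (Claret), 502 (eGFP) and 364 (Violet), with log2 ratios of 2.65, 3.01 and 2.56. MLXIPL, the gene of the related factor ChREBP, was at 2.14, 2.37 and 2.17 on 22 to 123 reads. MLXIP, which encodes MondoA, was at -0.43, -0.25 and -0.22. Of the 11 genes in this list, all of which passed the filter, 2 were called higher and 0 lower in each library, beside 11.2% to 11.9% of all genes higher, with medians of -0.23, -0.25 and -0.22.

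SESN2 and DDIT4 are known to be induced through the stress factor ATF4, so genes related to it were read too. Their list, like the others, was chosen with earlier results of these data known. Of 18 ATF4-related genes, all of which passed the filter, 13 were called higher in all 3 libraries and 1, ATF5, lower, beside 8.49% and 4.93% of all genes, with medians of 1.62, 1.61 and 1.54. ATF4 itself was at 1.86, 1.78 and 1.70. CHAC1, NUPR1 and ASNS had the largest log2 ratios of the list, with ASNS, the asparagine synthetase gene, at 3.72, 3.85 and 3.63. Beside these, the log2 ratios were 2.13 to 2.33 for SESN2 and 2.52 to 2.57 for DDIT4. Shared sequence makes the counts of ATF4 (29.7% of its 31-base stretches are in other genes), DDIT3 (28.9%) and ASNS (42.7%) uncertain.

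**Figure D5:**
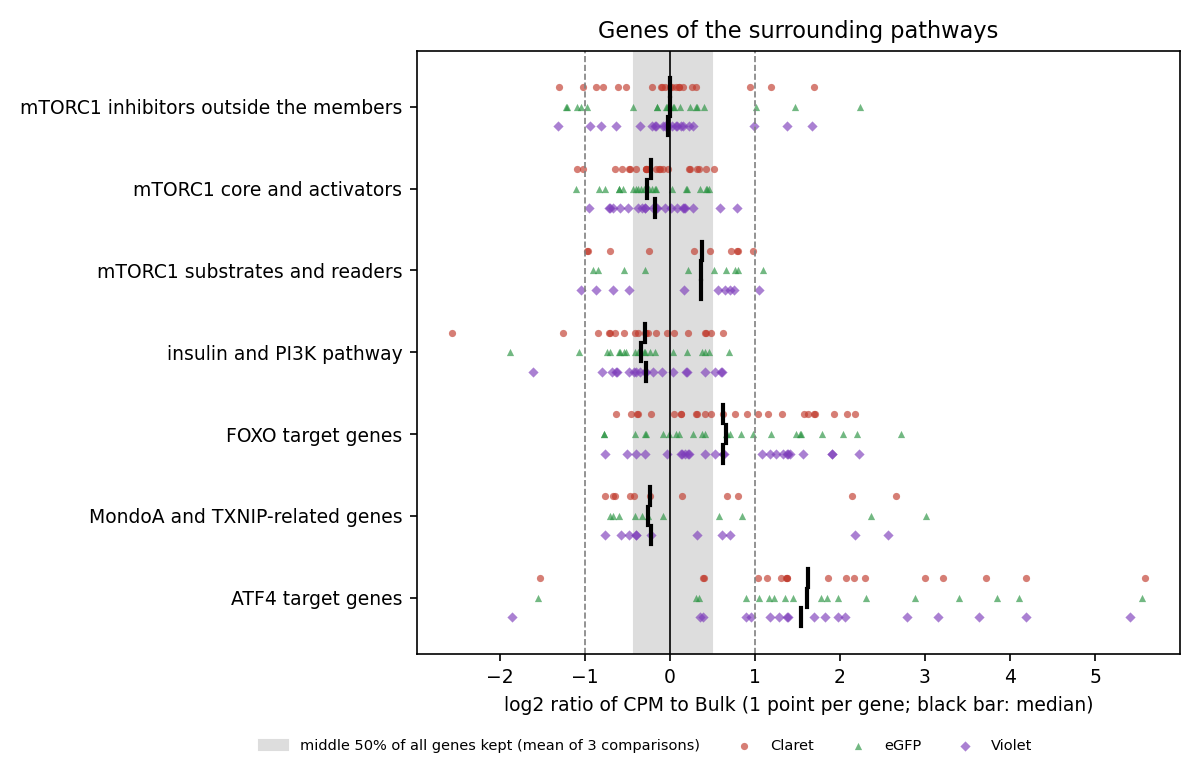
Log2 ratio to Bulk of the genes of 7 pathway lists that passed the filter, 1 point per gene and library, with the median as a black bar. The grey band holds the middle 50% of all genes kept; the ATF4 medians of 1.54 to 1.62 and the FOXO target medians of 0.62 to 0.66 lie to its right, and the other medians lie within it.

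The genes with the profile most like SESN2 were found among 9755 protein-coding genes with a mean of at least 10 CPM, by Euclidean distance of centred log2 CPM over the 4 libraries. DDIT3, which encodes the stress factor CHOP, was nearest (distance 0.06; 101 reads in Bulk against 426 to 541 in the others), followed by HID1 (0.11) and RRAS (0.11). For TXNIP the nearest were ASNS (0.23), ITGAX (0.32) and ADM2 (0.34). These distances describe 4 values per gene, which all share the same Bulk library.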

How the data were processed

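Read counts per gene were deposited by the authors with no normalization; per the submitters' processing notes, HISAT2 2.0.5 and featureCounts 1.5.0-p3 were used, with strand and multi-mapping settings not given in the sources used here. FPKM values deposited by the authors derive from the same counts and served for levels between genes and 1 alternative. Starts and ends of 58724 of 58735 genes equal GENCODE 29 (GRCh38). Groups came from the sample titles.

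Genes with a mean of at least 1 CPM were kept (14585). Libraries were scaled by TMM (edgeR 4.0.16, R 4.3.3), with a prior count of 2 in log2 ratios. With 1 library per group, no residual degrees of freedom remain for a quasi-likelihood test, so reads of 2 libraries were compared by a two-sided exact conditional binomial test (scipy 1.17.1), with Benjamini-Hochberg adjustment over all genes kept, in 6 comparisons. The comparison was also run on counts simulated with Poisson noise only. Those counts hold no spread between replicate libraries, so that run cannot stand in for replicates. A count of 3, the limit that 0 reads allow, is 0.177 to 0.191 CPM. Reads carry no molecular identifiers, so intervals cover counting error only.

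The 10 genes and the lists were chosen with earlier results of these data known. Named list genes are up to 3 per list, those called alike in all 3 libraries and ranked by the weakest of their 3 log2 ratios, and fixed partners (TSC2, MTOR, AKT1S1, ATF4, MLXIP, ARRDC4, IRS1). Other list genes in the text (CDKN1B, BCL2L11, SELENOP, ATF5, ULK1, RPS6KB2, SGK3 and 5 further FOXO targets) fall outside this rule and were chosen after their values were seen. Protein sequences were not used here, and 1 further gene list, with 2 fixed partners in it, is not reported here.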

Additional observations from a re-analysis of the deposited data

How the results depend on the processing

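The alternatives were scaling by total counts, DESeq2 size factors, no filter, a filter at 10 CPM, a prior count of 0.5, log2(FPKM + 1), a GC correction and groups from the treatment field. With log2(FPKM + 1), 3 of the 10 genes were higher in Claret in place of 5, 3 in eGFP in place of 4 and 4 in Violet in place of 5. With groups from the treatment field, 0 were higher and 5 lower in Claret, 0 were higher in eGFP and 0 in Violet, and 5 were called for Claret against eGFP and 4 for Claret against Violet. Log2 ratios of single genes were not recomputed with groups from the treatment field, so the counts of values that follow leave that alternative out. Under the other alternatives, 4 of 207 values against Bulk lost the call (DEPTOR and FOXO4 on log2(FPKM + 1)) and 0 reversed. Those 207 values include genes not called in the main setting, which had no call to lose. Between slow-cycling libraries, DDIT4 for eGFP against Violet turned from 0.02 to -0.0038 under scaling by total counts and to -0.0201 under the GC correction. Summing FOXO3 with FOXO3B was chosen after seeing the data. Under 10 CPM DEPTOR and SESN1 left the fit. Some medians against Bulk moved. On log2(FPKM + 1) the median of the 10 genes was 0.43 in Claret and 0.38 in eGFP, and the FOXO target median in Claret was 0.40. With the filter at 10 CPM the median of the members left was 0.87 in eGFP, and the ATF4 list median in Claret was 1.93. For mTORC1 substrates and readers in eGFP it was 0.52 with no filter and 0.25 under the GC correction. No paired analysis was possible because each group holds 1 library.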
